A study of Mus musculus with 28 samples.

Results

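Polycomb repressive complex 2 and H3K27 demethylase genes were followed through 12 H3K27ac ChIPmentation libraries of mouse male germ cells. The set held 9 genes: the catalytic subunits Ezh1 and Ezh2, the core subunits Eed and Suz12, the accessory subunits Jarid2, Mtf2, Phf1 and Phf19, and the demethylase Kdm6b. Members are defined by symbol: every H3K27ac peak that the deposited tables assign to 1 of these symbols was taken. A promoter peak was a peak within 1000 bp of a transcription start listed under that symbol alone. The rule found 277 peaks among 471458 in the 12 libraries, of which 135 were promoter peaks, and the 9 genes stood among 17923 genes listed alone on a line.

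All animals were C57BL/6, and the genotypes were wild type (WT) and Scml2-KO, here KO. Scml2 encodes a germline Polycomb protein. H3K27ac was profiled in Thy1+ and c-Kit+ spermatogonia of P7 testes, at postnatal day 7, in both genotypes, and in pachytene spermatocytes (PS) and round spermatids (RS) of adult testes in KO, with 2 libraries in each of the 6 groups. The 16 input libraries, 2 in each of 8 groups, covered the same cells and also WT PS and RS, whose H3K27ac is not analysed here. Thy1 marks a population that includes undifferentiated spermatogonia, and c-Kit marks differentiating spermatogonia. The cells came from whole testis by magnetic sorting (MACS) or by sedimentation in a gradient (STA-PUT), and the labels do not say which method served which group. They also do not say whether the 2 libraries of a group came from separate animals, so the p-values measure the spread between those libraries, which may be technical. PS differed from c-Kit+ spermatogonia in age as well as in cell type, and these cannot be told apart. No RNA or protein was measured, so the KO label was not checked here.

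Polycomb repressive complex 2 places methyl groups on lysine 27 of histone H3, a mark of silenced genes. Ezh1 and Ezh2 carry the enzyme activity, Eed and Suz12 are needed for it, and the accessory subunits bring the complex to chromatin, with Mtf2, Phf1 and Phf19 forming the Polycomb-like family. Kdm6b removes the methyl groups. Acetylation of the same lysine, H3K27ac, excludes methylation of that residue and marks active promoters and enhancers, so the measurement here is of activity-linked chromatin at the genes that encode the machinery, not of the methyl mark itself.

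Values are the fold enrichment of the highest summit in a gene's promoter peaks, a ratio of the ChIP signal at that point over the library's background. The libraries held 17877 to 36362 peaks in spermatogonia and 63322 to 73316 in adult cells, and the median promoter fold enrichment was 7.58 to 13.7 and 11.4 to 15.5, respectively. The files give no read totals, so depth is unknown. To set libraries side by side, each promoter was also given its percentile among all promoter peaks of the same library. Pachytene marker genes had a promoter peak at 7 of the 7 that the files list in every PS and RS library and at 2 to 4 of them in spermatogonia, whereas the round spermatid list had 4 to 5 of 7 in PS and 4 in RS. Genes of undifferentiated spermatogonia had 2 of 6 in Thy1+ WT and 1 in c-Kit+ WT. In KO they had 1 to 6 in Thy1+, 1 to 3 in c-Kit+, 4 in PS and 3 to 5 in RS. The differentiating list had 2 of 6 in Thy1+ WT and 3 in c-Kit+ WT. In KO it had 1 to 4 in Thy1+, 2 to 5 in c-Kit+, 3 to 6 in PS and 4 to 5 in RS. Neither list was confined to spermatogonia.

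H3K27ac lay at the promoters of nearly the whole gene set throughout. A promoter peak was present in all 12 libraries for 8 of the 9 members, Kdm6b being the exception with 7 libraries, and the share over all genes listed alone was 37.0%. No input library had a peak at a member promoter, and 0.29% of all genes listed alone had one in at least 1 input. With only stronger peaks kept (-log10 q of at least 5), Phf19 was called in 10 libraries and the count of members with a call in every library was 7. The plot of promoter fold enrichment by library shows all values.

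**Figure D1:**
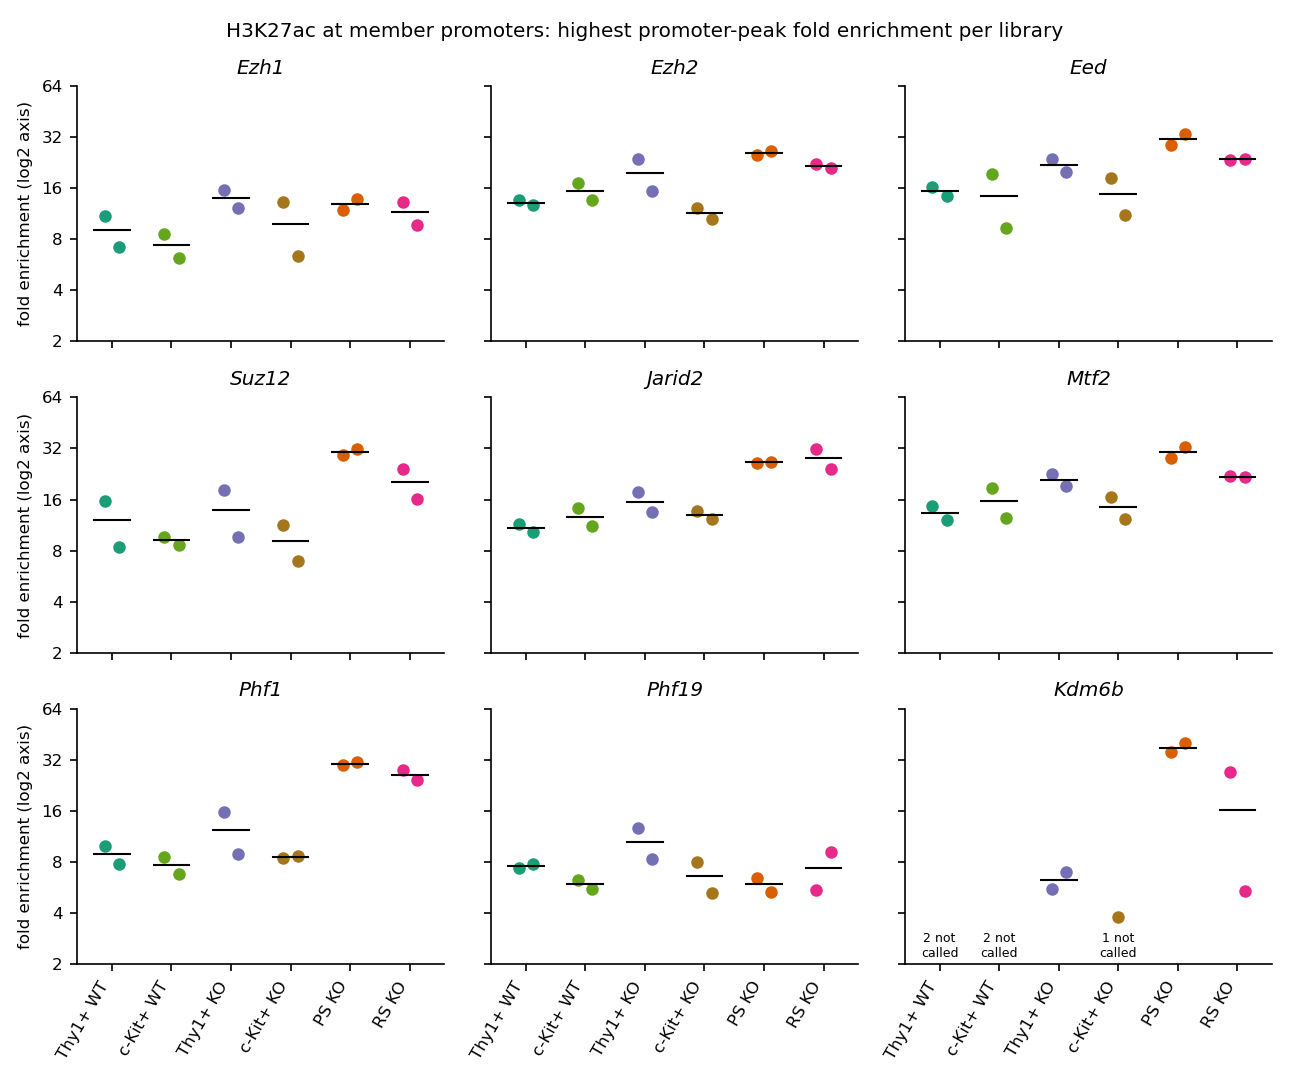
Highest promoter-peak fold enrichment (vertical log2 axis) of each of the 9 members in the 6 groups (horizontal axis). Points are single libraries, 2 per group, and bars are means of 2 called libraries. Ezh2, Eed, Suz12, Jarid2, Mtf2 and Phf1 sit higher in all PS and RS libraries than in c-Kit+ KO, Phf19 stays between 5.25 and 12.7, and Kdm6b has libraries with no promoter call.

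Among the catalytic subunits, Ezh2, the main methyltransferase of proliferating cells, had the more strongly acetylated promoter in 11 of the 12 libraries. Ezh2 (chr6:47530274-47595030, minus strand) had a fold enrichment of 13.6 and 12.7 in Thy1+ WT, 17.1 and 13.6 in c-Kit+ WT, 23.8 and 15.3 in Thy1+ KO, 12.3 and 10.5 in c-Kit+ KO, 25.2 and 26.7 in PS and 22.3 and 21.1 in RS. Its percentile was 70.5 to 90.5 in the 8 spermatogonial libraries and 81.6 to 86.9 in the adult ones, ranges that overlap. Ezh1 (chr11:101191115-101226450, minus strand), the homologue that predominates in resting and differentiated cells, had 11.0 and 7.24 in Thy1+ WT, 8.55 and 6.20 in c-Kit+ WT, 15.7 and 12.2 in Thy1+ KO, 13.2 and 6.41 in c-Kit+ KO, 11.8 and 13.9 in PS and 13.3 and 9.74 in RS. The exception was the first c-Kit+ KO library, where Ezh1 at 13.2 stood above Ezh2 at 12.3. Ezh1 ranked at percentiles 30.0 to 75.9 in spermatogonia and 40.5 to 51.9 in adult cells.

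Of the core subunits, Eed had the higher promoter value in every spermatogonial library. Eed (chr7:89954654-89980976, minus strand), which binds the methylated lysine and holds the complex together, had 16.2 and 14.5 in Thy1+ WT, 19.4 and 9.30 in c-Kit+ WT, 23.8 and 19.8 in Thy1+ KO, 18.4 and 11.1 in c-Kit+ KO, 28.6 and 33.6 in PS and 23.5 and 23.8 in RS. Its promoter was within the upper range everywhere, at percentiles 64.5 to 94.8 in spermatogonia and 86.5 to 93.7 in adult cells. Suz12 (chr11:79993106-80034123, plus strand), the scaffold on which the accessory subunits dock, had 15.7 and 8.45 in Thy1+ WT, 9.69 and 8.68 in c-Kit+ WT, 18.2 and 9.59 in Thy1+ KO, 11.3 and 7.00 in c-Kit+ KO, 29.4 and 31.99 in PS and 24.3 and 16.2 in RS. Its percentile was 43.7 to 84.8 in spermatogonia, with a median of 57.5, and 72.7 to 92.4 in adult cells. Both PS libraries were above every spermatogonial library in percentile, whereas the second RS library was below the first Thy1+ WT library.

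The accessory subunits ranged widely in rank. Phf1 (chr17:26933127-26937890, plus strand) had 9.96 and 7.84 in Thy1+ WT, 8.55 and 6.82 in c-Kit+ WT, 15.7 and 8.95 in Thy1+ KO, 8.51 and 8.75 in c-Kit+ KO, 29.7 and 30.9 in PS and 27.8 and 24.3 in RS. It ranked at percentiles 37.9 to 62.8 in the 8 spermatogonial libraries and 89.8 to 94.2 in the 4 adult ones, with no overlap. The share of all promoters that separate in this way was not counted. Phf19 (chr2:34893755-34913976, minus strand) had 7.34 and 7.84 in Thy1+ WT, 6.27 and 5.58 in c-Kit+ WT, 12.7 and 8.31 in Thy1+ KO, 8.04 and 5.25 in c-Kit+ KO, 6.48 and 5.33 in PS and 5.48 and 9.20 in RS. It ranked at 19.4 to 50.2 in spermatogonia and 12.9 to 39.6 in adult cells, and its median of 6.91 over the 12 libraries was the lowest of the 8 members called in all of them. These 3 Polycomb-like proteins, which read a methylated lysine on histone H3 and bind DNA, differed in rank. Mtf2 (chr5:108065674-108109219, plus strand) had 14.7 and 12.1 in Thy1+ WT, 18.8 and 12.4 in c-Kit+ WT, 22.8 and 19.2 in Thy1+ KO, 16.6 and 12.2 in c-Kit+ KO, 28.2 and 32.5 in PS and 21.9 and 21.6 in RS. Its percentile stayed at 80.9 to 93.9 in spermatogonia and 82.6 to 92.2 in adult cells. Jarid2 (chr13:44730774-44921643, plus strand), a demethylase-like protein without enzyme activity that recruits the complex, had 11.5 and 10.3 in Thy1+ WT, 14.3 and 11.2 in c-Kit+ WT, 17.7 and 13.4 in Thy1+ KO, 13.7 and 12.2 in c-Kit+ KO, 26.3 and 26.7 in PS and 31.7 and 24.3 in RS. Its percentile was 65.4 to 85.7 in spermatogonia and 81.6 to 97.7 in adult cells, and both RS libraries were above all others, with values that come from a site inside the gene, described further on.

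**Figure D2:**
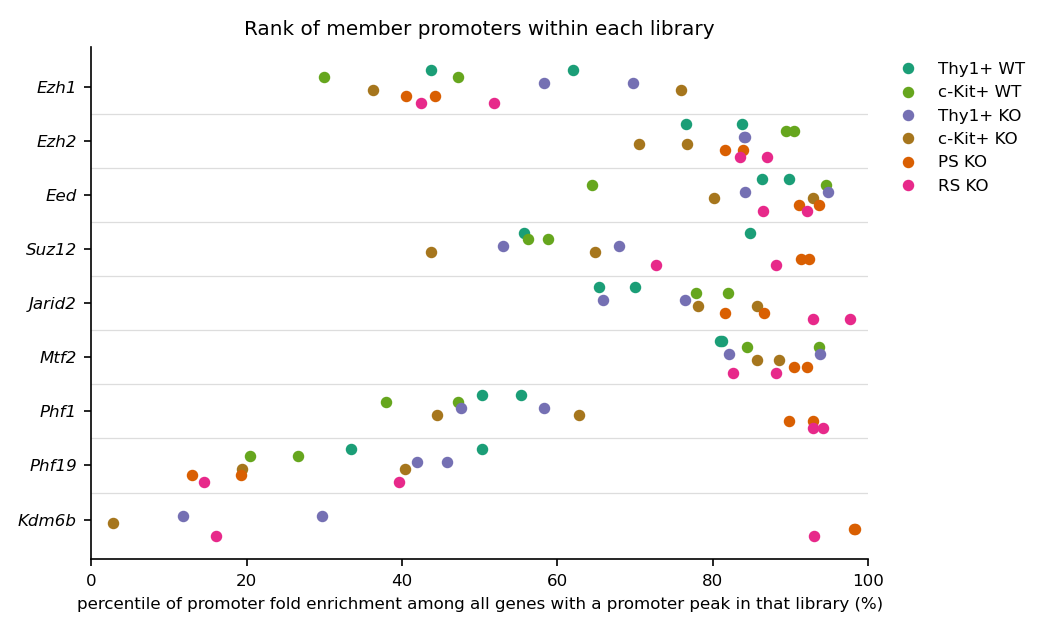
Percentile of each member's promoter fold enrichment (horizontal axis, %) among all genes with a promoter peak in the same library, for the 9 members (rows). Each point is 1 library, coloured by group. Phf1 separates into 37.9 to 62.8 in spermatogonia and 89.8 to 94.2 in adult cells, Mtf2 stays at or above 80.9, and Phf19 stays at or below 50.2.

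The promoter peaks of Jarid2 and Phf1 were also longer in adult cells. The summed length of the Jarid2 promoter peaks was 1562 to 2117 bp in spermatogonia and 5552 to 6273 bp in PS and RS, at percentiles 99.0 to 99.6 of promoter peak length. The adult sums include a site inside the gene, described further on. In the 8 spermatogonial libraries that site was called as a separate peak outside the promoter window, so it is not in their sums. The Phf1 promoter peaks covered 832 to 1684 bp in spermatogonia and 2669 to 3773 bp in adult cells. Median promoter peak length over all genes was 825 to 1293 bp in spermatogonia and 1503 to 1764 bp in adult cells, so a longer peak was general, and the Ezh1 peaks went from 453 to 1217 bp up to 1252 to 1436 bp while their length percentile was 22.7 to 47.5 and 32.4 to 38.9.

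Upstream sequence is shown for 3 promoters: Suz12 and Phf1, which passed the test described further on as higher in PS than in c-Kit+ KO, and Eed, which did not pass it. The genes were not tested against each other. The 250 bases before each start are from the RefSeq promoter table of build GRCm38.p6 (the build of mm10), 5′ to 3′ on the gene's strand. Capitals mark matches on either strand to the GC box, spelled GGGCGG, to the box spelled CCAAT, and to the A-MYB-like motif spelled AACNGNC. Matches to the ETS motif and to the cAMP response element part named below would also be in capitals, and these 3 stretches hold none.
Suz12, chr11:79992856-79993105, plus strand: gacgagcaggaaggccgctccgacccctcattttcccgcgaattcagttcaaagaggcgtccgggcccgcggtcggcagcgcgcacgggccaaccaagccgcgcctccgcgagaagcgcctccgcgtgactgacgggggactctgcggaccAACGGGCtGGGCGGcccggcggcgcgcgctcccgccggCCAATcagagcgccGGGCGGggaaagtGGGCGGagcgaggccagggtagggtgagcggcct
Phf1, chr17:26932877-26933126, plus strand: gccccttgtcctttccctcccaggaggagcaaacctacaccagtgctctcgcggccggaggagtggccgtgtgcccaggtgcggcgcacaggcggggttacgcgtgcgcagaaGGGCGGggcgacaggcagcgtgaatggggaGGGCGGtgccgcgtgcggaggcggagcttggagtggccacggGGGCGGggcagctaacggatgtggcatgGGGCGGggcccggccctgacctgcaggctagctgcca
Eed, chr7:89980977-89981226, minus strand: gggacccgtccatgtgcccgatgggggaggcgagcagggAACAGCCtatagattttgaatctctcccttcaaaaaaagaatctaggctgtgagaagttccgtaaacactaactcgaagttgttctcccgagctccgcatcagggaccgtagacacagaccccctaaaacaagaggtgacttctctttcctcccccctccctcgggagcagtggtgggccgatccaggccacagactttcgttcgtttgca

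The Suz12 stretch holds 3 GC boxes, 1 CCAAT and 1 A-MYB-like match, the Phf1 stretch holds 4 GC boxes and none of the other motifs marked, and the Eed stretch holds 1 A-MYB-like match and no GC box. Of the 9 members, 8 had an entry in the table, Kdm6b being the other, and the 300-base windows (250 before and 50 after the start) were searched for each motif. GGGCGG was found in 5 of these 8 members (Suz12, Jarid2, Mtf2, Phf1 and Phf19) and in 35.7% of all 32851 promoters of the table. CCAAT was found in 4 (Ezh2, Eed, Suz12 and Jarid2) against 37.4%, and AACNGNC in 3 (Ezh2, Eed and Suz12) against 32.8%. TATAAA was found in 1 (Jarid2) against 13.6% and the cAMP response element part TGACGT in 1 (Phf19) against 7.51%. The ETS motif, searched as CCGGAAG, was in none of the 8 and in 8.86% of all promoters. Part of the NRF1 motif, searched as GCGCATG, was in none and in 3.91%. The E box, searched as CACGTG, was in none and in 7.15%. All searches covered both strands, and matches may overlap. A further Mtf2 start that the deposited tables do not list was left out of these counts. The only Ezh1 entry starts at 101226463, not at the listed 101226450, and was kept. The windows held 17 to 41 CG dinucleotides, the lowest at Eed and the highest at Suz12, and the median over all promoters was 7.

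Kdm6b, an H3K27 demethylase, had its acetylation on both sides of the start that the files list. That start is at position 69413675 of chromosome 11 (chr11:69398518-69413675, minus strand). Within 1000 bp of it there was no summit in the 4 WT libraries or in the second c-Kit+ KO library, and elsewhere the highest summit was 5.57 and 7.03 in Thy1+ KO, 3.78 in the first c-Kit+ KO library, 11.4 and 7.46 in PS and 7.82 and 5.41 in RS. Between 1000 and 8000 bp into the gene, the highest summit was 18.9 and 17.5 in Thy1+ WT, 18.8 and 19.8 in c-Kit+ WT, 29.9 and 20.5 in Thy1+ KO, 19.9 and 13.4 in c-Kit+ KO, 35.5 and 40.0 in PS and 28.2 and 23.8 in RS. This intragenic summit lay 2472 to 3406 bp inside the listed start in the 12 libraries, in peaks that the authors class as promoter in PS and as exon or intron in the other 10.

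On the other side, 1000 to 8000 bp upstream, the highest Kdm6b summit was 15.7 and 12.7 in Thy1+ WT, 15.96 and 15.5 in c-Kit+ WT, 26.3 and 16.6 in Thy1+ KO, 14.7 and 9.91 in c-Kit+ KO, 29.7 and 29.3 in PS and 26.99 and 25.4 in RS. These summits stood at -6117 to -4366 bp, and many carry a shared symbol line (Kdm6b with Tmem88, or with Cyb5d1 and Tmem88), which the rule for members leaves out. The RefSeq gene record of Kdm6b on the same build ends at 69420367, upstream of the start listed in the files. In PS the intragenic peak reached the window around the listed start, and the 2 libraries counted as promoter calls with fold enrichments of 35.5 and 40.0. In the first RS library the promoter value was 26.99, the upstream summit at -5963 bp, and in the second RS library it was 5.41. With the window set to 2000 bp Kdm6b was called in all 12 libraries, WT included. In both flanking windows the Thy1+ KO libraries were above the Thy1+ WT libraries. In c-Kit+ cells KO was below WT upstream and overlapped with WT inside the gene. These values are not scaled between libraries. The median promoter fold enrichment was 13.7 and 8.95 in Thy1+ KO and 9.43 and 7.84 in Thy1+ WT. In c-Kit+ cells it was 9.46 and 7.58 in KO and 9.12 and 8.06 in WT.

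**Figure D3:**
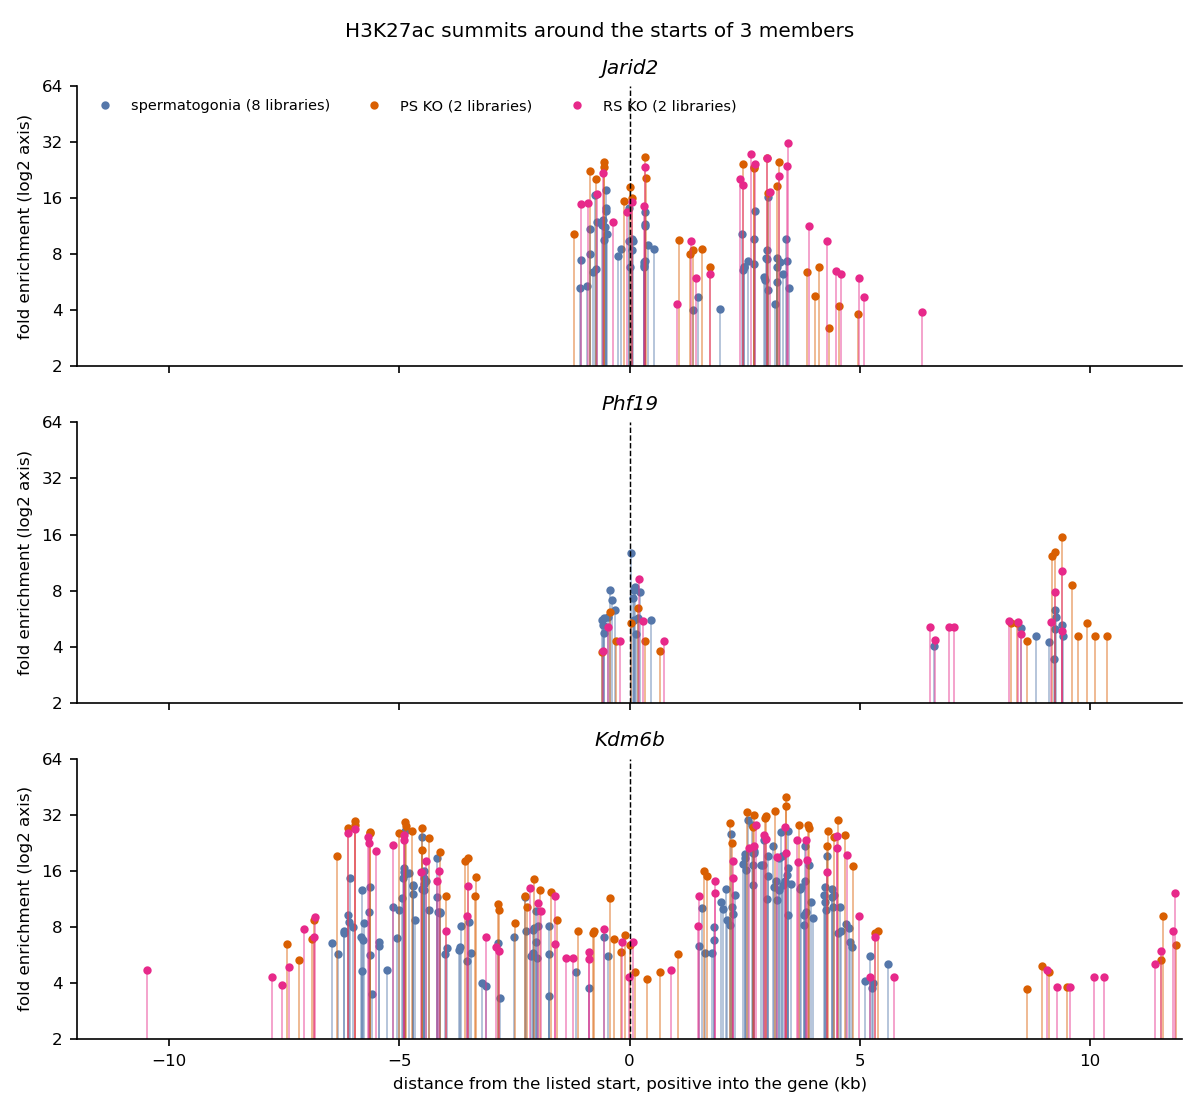
Fold enrichment of every H3K27ac summit (vertical log2 axis) within 12 kb of the listed start of Jarid2, Phf19 and Kdm6b (horizontal axis, kb, positive into the gene), whatever gene the line names. Points are summits, coloured by spermatogonia (8 libraries), PS KO and RS KO. Kdm6b shows a cluster on each side of the start, Jarid2 a second cluster inside the gene, and Phf19 a site inside the gene that reaches 15.5 in PS.

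Scml2 loss was compared with WT in each spermatogonial population. For this and the comparisons below, overlapping peaks were merged into regions, regions called in every library compared were kept, log2 fold enrichment was centred on each library's median, and limma was fitted over all regions with Benjamini-Hochberg adjustment and a threshold of 0.05. None of the 8 member promoter regions tested passed in Thy1+ cells, where 0.00923% of all 10835 regions did, which is 1 region. Without the second Thy1+ KO library 91 regions passed there, all lower in KO and none at a member promoter. Likewise none passed in c-Kit+ cells (0.0% of 11313 regions), across both stages together (0.0% of 9585) or for a difference of the KO effect between the stages (0.0% of 9585). At an unadjusted p under 0.05, limma gave 559 regions in Thy1+ cells, 543 in c-Kit+ cells, 502 across both and 453 for the difference between stages.

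The centred log2 changes of the 8 members ran from -0.34 (Suz12) to 0.12 (Mtf2) in Thy1+ cells, with a median of -0.03, and the median over all regions was -0.07. In c-Kit+ cells they ran from -0.50 (Ezh2) to 0.27 (Ezh1), with a median of -0.01, and the median over all regions was -0.07. Ezh2 in c-Kit+ cells was the only member promoter region with an unadjusted p under 0.05 in these comparisons. Ezh2 had 17.1 and 13.6 in WT and 12.3 and 10.5 in KO, a change of -0.50 with a standard error of 0.22 (limma, adjusted p = 0.941). Its groups did not overlap in c-Kit+ cells before centring. In Thy1+ cells they did not overlap either but lay the other way round, with KO libraries at 23.8 and 15.3 and WT libraries at 13.6 and 12.7, and the centred change was 0.01 with a 95% interval of -0.46 to 0.47. For the 8 members the 95% intervals of the KO effect across both stages together reached from -0.54 at the lowest bound (Ezh2) to 0.55 at the highest (Ezh1). The Kdm6b promoter was not tested, since it was not called in every library. Regions of Kdm6b away from the listed start were tested, and none passed. The intragenic region changed by -0.09 in Thy1+ cells (limma, adjusted p = 0.987) and by -0.32 in c-Kit+ cells (limma, adjusted p = 0.941). The upstream region changed by -0.46 in c-Kit+ cells, with a standard error of 0.22 (limma, adjusted p = 0.941). An intronic Jarid2 region that was also called in inputs changed by -0.68 in Thy1+ cells (limma, unadjusted p = 0.00777, adjusted p = 0.744). Across both stages together it changed by -0.39 (limma, unadjusted p = 0.0287, adjusted p = 0.888).

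**Figure D4:**
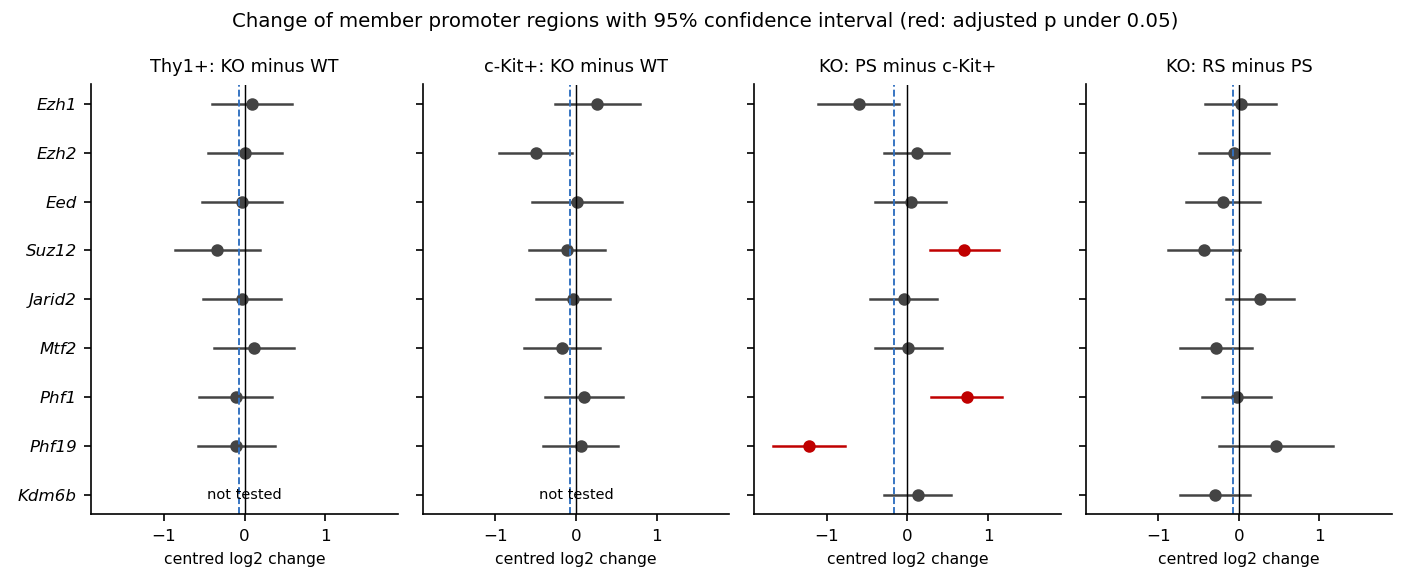
Centred log2 change of the promoter-linked region of each member (rows) with its 95% confidence interval from limma, in 4 comparisons (panels, 2 libraries against 2). Red points passed the adjusted threshold of 0.05 and the dashed line is the median change over all regions tested. The red points are Suz12, Phf1 and Phf19 in PS against c-Kit+.

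Passage from Thy1+ to c-Kit+ spermatogonia was likewise without a call at the members. With genotype in the model, none of the 8 passed, and 1.09% of 9585 regions did. The changes ran from -0.24 (Phf19) to 0.25 (Jarid2), with a lowest adjusted p of 0.457, and their median was -0.09 beside 0.01 over all regions. In WT alone none passed, where 0.216% of 10177 regions did, and in KO alone none passed, where 0.0% of 11134 did although limma gave 1255 regions at an unadjusted p under 0.05. The counts over all regions rested on single libraries: without the second Thy1+ KO library 878 regions passed in KO alone, 845 of them higher, and the genotype-adjusted count of 104 became 9 without the first Thy1+ WT library and 178 without the second. The members' count stayed 0 in each.

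Between c-Kit+ spermatogonia and PS, both KO, 3 of the 9 members passed the test. This count was near the share over all 12501 regions, of which 31.9% passed, 6.83% higher and 25.1% lower. Suz12 and Phf1 rose relative to the library median, Phf19 fell, and the other 6 did not pass. Among regions at a promoter, 8.21% were higher and 15.2% lower. Suz12 went from 11.3 and 7.00 in c-Kit+ to 29.4 and 31.99 in PS, and the groups did not overlap. Its centred log2 change was 0.71 with a standard error of 0.20 (limma, adjusted p = 0.0165). Before centring a rise was general: the median promoter fold enrichment went from 9.46 and 7.58 in c-Kit+ KO to 14.5 and 15.5 in PS.

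Phf1 went from 8.51 and 8.75 to 29.7 and 30.9, again without overlap, with a centred change of 0.74 and a standard error of 0.20 (limma, adjusted p = 0.0145). Phf19 had 8.04 and 5.25 in c-Kit+ and 6.48 and 5.33 in PS, which overlap before centring. The median of log2 fold enrichment over the regions compared was 3.17 and 2.81 in the c-Kit+ libraries and 4.04 and 4.09 in PS, and relative to it Phf19 changed by -1.22 with a standard error of 0.21 (limma, adjusted p = 0.000884). The fall of Phf19 is thus one relative to the median of the library: without centring, its change was -0.14 (limma, adjusted p = 0.657).

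Scaling set the share of higher and lower calls in this comparison. The centred fit gave 854 higher and 3138 lower regions, quantile normalization 386 and 398, and no centring 8841 and 99, with a median change over all regions of -0.17, -0.01 and 0.91. Suz12 and Phf1 had a positive change and Phf19 a negative one under these 3 scalings, at 0.73, 0.76 and -0.73 with quantile normalization, where none of the 3 passed (limma, adjusted p = 0.0621, 0.0828 and 0.0841). The calls also rested on single libraries: without the second c-Kit+ KO library no region at all passed, although limma gave 5751 at an unadjusted p under 0.05, and the changes were then 0.59, 0.99 and -1.29. Without the second PS library Phf19 alone passed, and without the first c-Kit+ KO library Phf1 did not (limma, adjusted p = 0.0576).

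Ezh1 changed by -0.60 with a standard error of 0.23 and missed the threshold (limma, adjusted p = 0.0647), with 13.2 and 6.41 in c-Kit+ and 11.8 and 13.9 in PS, which overlap. It turned to 0.47 without centring. The remaining members Ezh2, Eed, Jarid2, Mtf2 and Kdm6b lay between -0.05 (Jarid2) and 0.13 (Kdm6b), and their 95% intervals together spanned -0.46 to 0.55. For Kdm6b the region is the intragenic one, which carried the highest mean signal among the regions linked to it. For Jarid2 the region spans the start and a site inside the gene, described further on, and only the highest value in each library was kept. That site had 7.57 and 5.83 in c-Kit+ KO and 26.3 and 24.5 in PS, and its own change was not tested. The median over the 9 members was 0.04, and over all regions -0.17.

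Markers of somatic testis cells moved in the same comparison, and so did genes in general. Of all genes listed alone, 52.3% and 45.7% had a promoter peak in c-Kit+ KO and 63.5% and 61.3% in PS. Their median promoter fold enrichment was 9.46 and 7.58 in c-Kit+ KO and 14.5 and 15.5 in PS. Sertoli cell genes had a promoter peak at 2 to 4 of 6 in c-Kit+ KO, with a summed fold enrichment of 16.3 to 27.9, and at 5 of 6 in PS, with 49.6 to 66.1, Wt1 having none in either. Leydig cell genes had 1 to 3 of 5 in c-Kit+ KO (5.83 to 16.6) and 3 of 5 in PS (22.5 to 25.1), with no peak at Cyp17a1 or Hsd3b1 in PS. Immune and endothelial genes had 1 of 4 in c-Kit+ KO (6.41 to 6.62) and 3 of 4 in PS (20.6 to 21.3), with no peak at Ptprc in either, and peritubular genes had 0 to 2 of 3 and 0 to 1 of 3. Their part in the Suz12, Phf1 and Phf19 changes was not tested, and in such bulk libraries a different mix of cells and a change within cells cannot be told apart. In RS, Sertoli genes had 2 to 3 of 6 (10.3 to 17.2), Leydig genes 1 of 5 (4.30 to 5.41) and the immune and endothelial list 4 of 4 (22.2 to 25.4).

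From PS to RS no member promoter region passed, beside 20.2% of 21329 regions, and limma gave none of them an unadjusted p under 0.05. Here the Kdm6b region merged the intragenic and upstream clusters with the listed start between them. The Jarid2 region merged the start with the site inside the gene, so neither is a value of the start alone. The changes of the 9 members ran from -0.43 (Suz12) to 0.47 (Phf19), with a median of -0.06 beside -0.08 over all regions. Phf19 in RS was 5.48 in the first library and 9.20 in the second, and its change rested on that pair: without the first RS library it was 0.98 and passed (limma, adjusted p = 0.0362), and without the second it was -0.08. PS is shared by this comparison and the one before, so the Suz12 changes of 0.71 and -0.43 are not independent.

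Away from promoters, the members had 48 merged regions, of which 30 were called in adult libraries alone, 10 in spermatogonial libraries alone and 8 in both. Over all 114945 such regions of genes listed alone these shares were 66.9%, 18.6% and 14.5%, so the members' counts were near the background. Adult libraries held more peaks in all, and the members' share of a library's peaks was 0.05225% to 0.117% in spermatogonia and 0.0391% to 0.0553% in adult cells. Jarid2, the longest of these genes, had 19 of the 48. A region upstream of Jarid2 (chr13:44597748-44600008, nearest edge -130766 bp from the start, classed as intergenic) was called in the 4 adult libraries and in no spermatogonial one, with 9.53 and 4.80 in PS and 12.5 and 14.6 in RS. RS libraries were above PS libraries, with a centred change of 1.19 and a standard error of 0.33 (limma, adjusted p = 0.0326), beside 12.4% of regions called higher. Without the second PS library the change was 0.56 (limma, adjusted p = 0.255) and without the second RS library 0.91 (limma, adjusted p = 0.0809). It was the only one of the 48 regions called in all adult and no spermatogonial libraries, beside 4.47% of all such regions.

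Inside Jarid2, a site 1000 to 8000 bp past the first listed start was called in every library. Its highest summit was 8.38 and 7.24 in Thy1+ WT, 9.69 and 6.82 in c-Kit+ WT, 16.2 and 10.2 in Thy1+ KO, 7.57 and 5.83 in c-Kit+ KO, 26.3 and 24.5 in PS and 31.7 and 24.3 in RS. In all 8 spermatogonial libraries it was lower than the highest summit within 1000 bp of the start, and in both RS libraries it was higher, where the start had 23.5 and 16.8. The Jarid2 promoter values of 26.3 in the first PS library and of 31.7 and 24.3 in RS are summits of this site. In PS it lay in 1 peak with the start, and in RS in a separate peak that comes within 1000 bp of the other listed start. Another intronic site of Jarid2 (chr13:44869504-44870095) was called in all 12 H3K27ac libraries, at 8.99 to 14.2, and also in 15 of the 16 inputs, at 7.44 to 11.96. Its change from c-Kit+ to PS was -0.99 (limma, adjusted p = 0.00519), and the inputs show the same site without the antibody.

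The Phf19 gene holds a site 8134 bp or more past its start (chr2:34903788-34905842, exon and intron) that was called in 11 of the 12 libraries. It had 6.29 and 4.22 in Thy1+ WT, 4.56 and 4.96 in c-Kit+ WT, 5.06 and 5.76 in Thy1+ KO, 5.20 and no call in c-Kit+ KO, 12.96 and 15.5 in PS and 10.2 and 5.41 in RS. The 2 PS libraries were the highest of all, at a gene whose promoter ranked at percentiles 19.3 and 12.9 in the same libraries. The missing call kept the site out of the test against c-Kit+. From PS to RS it changed by -0.74 with a standard error of 0.24 and missed the threshold (limma, adjusted p = 0.0584). Mtf2 had an intronic site 31688 bp or more past its start (chr5:108097362-108098595) with 8.21 and 8.66 in RS, 4.19 in the first PS library and no call in the other 9.

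Other genes of the same machinery gave no call at a promoter region in any of the 9 comparisons, though not all of them could be tested. The list held Rbbp4, Rbbp7, Aebp2, Lcor, Lcorl, Epop, Ezhip, Kdm6a and Uty, and 5 of its 9 genes had a promoter peak in all 12 libraries: Rbbp7 (a histone-binding core subunit), Aebp2 and Lcorl (accessory subunits), and Kdm6a and Uty (the X-linked demethylase and its Y-linked homologue). Ezhip, an inhibitor of the complex, was called in the 4 adult libraries and in no other, at 6.59 ± 2.54 in PS and 6.10 ± 0.22 in RS (SD, n = 2), and Epop was called in 8 libraries. Rbbp4 and Lcor had no promoter peak under the rule of a symbol listed alone, so no tested region was linked to their promoters. A region naming Rbbp4 did span its listed start. It changed by 0.18 from c-Kit+ to PS (limma, adjusted p = 0.536) and by 0.0015 from PS to RS (limma, adjusted p = 0.994). Epop and Ezhip were tested only from PS to RS. Kdm6a changed by -0.50 from PS to RS (limma, adjusted p = 0.0961) and Uty by -0.58 from c-Kit+ to PS (limma, adjusted p = 0.0604), both short of the threshold. The median change was -0.16 from c-Kit+ to PS over the 5 genes with a linked promoter region and -0.02 from PS to RS over the 7 with one, Rbbp4 not among them.

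The gene whose centred promoter profile was most like that of each member over the 12 libraries was found among the 6624 genes called in all of them. For Phf1 this was Arhgap33 (Pearson r = 0.975), for Phf19 Lpcat1 (0.942), for Jarid2 Arhgap17 (0.930), for Suz12 Tmem41b (0.921) and for Ezh1 Wwtr1 (0.907). The best matches were lower for Ezh2 (Ndst2, 0.851), Eed (Elp6, 0.821) and Mtf2 (Comtd1, 0.810). These values describe 12 libraries that fall into cell types and share library effects, and the best match among so many genes is high by selection.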

How the data were processed

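The data were peak tables of 12 H3K27ac and 16 input ChIPmentation libraries, 1 per library. Bowtie, MACS2 and the mouse build mm10 are named in the submitters' processing notes, and versions and settings are not given in the sources used here. Each line in the authors' tables is a summit with a height (a signal, the pileup), a fold enrichment (a ratio) and -log10 p and q values, per the file headers. Within a library the deposited fold enrichment equals (height + 1)/(background + 1) with 1 background height, 0.564 to 1.62 in the H3K27ac libraries. Lines of the mitochondrial chromosome, which name no gene, were left out.

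Groups came from the labels. Peaks of the compared libraries that overlapped by 1 bp or more were merged, the highest log2 fold enrichment was kept for regions called in every library, values were centred on the library median, and limma 3.58.1 (R 4.3.3) tested all regions with Benjamini-Hochberg adjustment and a threshold of 0.05. A member was linked to the region that overlaps its promoter peaks, and with several to the one with the highest mean. Fits were tested on simulated data. Python 3.11.15, pandas 2.3.3 and matplotlib 3.10.9 served for tables and figures. Named genes were all 9 members, 9 further genes of the machinery, and the gene most like each member by Pearson r. The members and lists were chosen with earlier results of these data known. Alternatives were other scalings, a replicate block, lowest values for missing calls, stricter peaks (-log10 q of at least 5), other merging rules, input regions left out and each library left out. The highest summit per gene was added after seeing the data.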

Additional observations from a re-analysis of the deposited data

How the results depend on the processing

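The count of member promoter regions that passed stayed 0 under every alternative run in the 7 comparisons of genotype or of Thy1+ with c-Kit+ cells. From c-Kit+ to PS it was 3, and it became 0 with quantile normalization and 7 with no centring. Leaving out 1 library gave 0 to 3. From PS to RS it was 0, and 0 to 1 with 1 library left out. Members with a promoter call in every library numbered 8, and 7 to 9 under the other window and peak settings. Same-numbered libraries of 2 groups correlated weakly in their deviations, at 0.000391 to 0.166 over the comparisons. The first library had more peaks and a higher background than the second in every H3K27ac group. With the replicate block the counts of members stayed 3 from c-Kit+ to PS (3705 regions in all, against 3992) and 0 from PS to RS (4456, against 4309). Between Thy1+ and c-Kit+ cells the block moved the count of all regions from 104 to 206 with genotype in the model. In KO alone it moved from 0 to 47.

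Without centring, Ezh1 from c-Kit+ to PS became 0.47 and the Jarid2 intronic region called in inputs 0.0852. Phf19 from PS to RS became -0.0847 without the second RS library and 0.977 without the first. The cause was not tested. All regions that passed from c-Kit+ to PS numbered 3992, and 784 with quantile normalization, 8940 with no centring, 16394 with missing calls set to the lowest value, 2013 with stricter peaks, 2210 per gene, and 0 to 4564 with 1 library left out. From PS to RS they numbered 4309, and 13206 with missing calls set to the lowest value, 1982 with stricter peaks, 1028 per gene, and 0 to 3402 with 1 library left out. The split from PS to RS was 2648 higher and 1661 lower, 2220 and 3630 with no centring, and 3476 and 840 when centred on promoter regions. Between Thy1+ and c-Kit+ cells the genotype-adjusted count of all regions was 104, and 0 with no centring, 71 with quantile normalization, 206 with the replicate block, 160 without input regions, 430 with missing calls set to the lowest value, 18 with stricter peaks and 9 to 178 with 1 library left out. In WT alone it was 22, and 0 with quantile normalization or stricter peaks, 2 with no centring or centred on promoter regions, 58 with the block, 264 with missing calls at the lowest value, 9 with 50% overlap, 4 per gene and 0 to 17 with 1 library left out. In KO alone it was 0, and 47 with the block and 0 to 878 with 1 library left out. For KO against WT it was 1 in Thy1+ cells, and 0 to 9 under the other settings and 0 to 91 with 1 library left out. Stricter peaks left Phf19 untested from c-Kit+ to PS and gave Ezh1 an adjusted p of 0.0416 (limma, change -0.60). With 1 library left in a group, that library is assumed to vary like the others. With 2 libraries a group and depth unknown, a change that misses the threshold is not shown to be absent.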
